A study of Mus musculus with 12 samples.

Results

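The effect of corticosterone (CORT, the main glucocorticoid of rodents) on the liver was examined in male mice whose glucocorticoid receptor (GR) was intact. The comparison used 2 of the 12 libraries of the study, those from liver of GRf/f mice given CORT and of GRf/f mice given vehicle, and the 2 liver libraries from GRmKO mice stood beside them as a separate pair. GRf/f mice carried an *Nr3c1* gene, which encodes GR, with a floxed exon 3 on the C57BL/6J strain and had no Cre transgene. GRmKO mice carried the same floxed gene with Acta1-Cre, which removes functional GR from muscle fibres, so that the receptor gene was left in place in the liver of both genotypes. All groups drank water with 1% ethanol for 4 weeks from 8 weeks of age, and the CORT groups received CORT in it at 100 µg/mL. The mice were caged singly, with free access to food. The time of day at which tissue was taken was not given in the sources used here. Each library was made from RNA pooled from 3 mice, with 1 library per group, so that no difference below has a replicate check and no p-value is given.

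Glucocorticoids enter hepatocytes, bind GR and move it to DNA, where it raises some genes and represses others. In the liver they are known for raising the output of glucose, for directing amino acids into glucose and urea, for fat storage, and for damping inflammation. Long exposure to excess CORT from drinking water also leads to high insulin and to obesity. The study gave CORT to GRf/f mice to obtain the response of an animal with the receptor in all tissues, against which the muscle knockout was set.

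The libraries were alike in depth, at 20471247 to 20940660 estimated counts, and 14313 to 14467 of 22252 entries were above 0 in each. A value is given as counts-per-million (CPM), the share of a library's counts times 1000000, and a change as the log2 ratio of CORT to vehicle after 0.5 CPM was added to both. The 12485 genes above 0 in all 4 liver libraries were tested. A gene was called higher or lower when it differed by at least 2-fold and the 95% exact (Clopper-Pearson) counting interval of its ratio left out equality. Intervals after a log2 change are these, computed without the added 0.5 CPM, and they cover counting error only, not the spread between mice or pools. With CORT, 737 genes were higher (5.9% of those tested) and 714 were lower (5.72%), which is 11.6% in either direction. The log2 changes of all genes had a median of 0.0048 and quartiles of -0.31 and 0.33, and 66.7% lay within 0.5 of 0. In the GRmKO pair 349 genes were higher (2.8%) and 352 lower (2.82%), or 5.61% in either direction, with a median of 0.049. Each deposited entry carries the identifier of a single transcript, and several entries were at 0 in some libraries and well above it in others, so that a value is that of the retained transcript and need not be that of the whole gene.

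**Figure D1:**
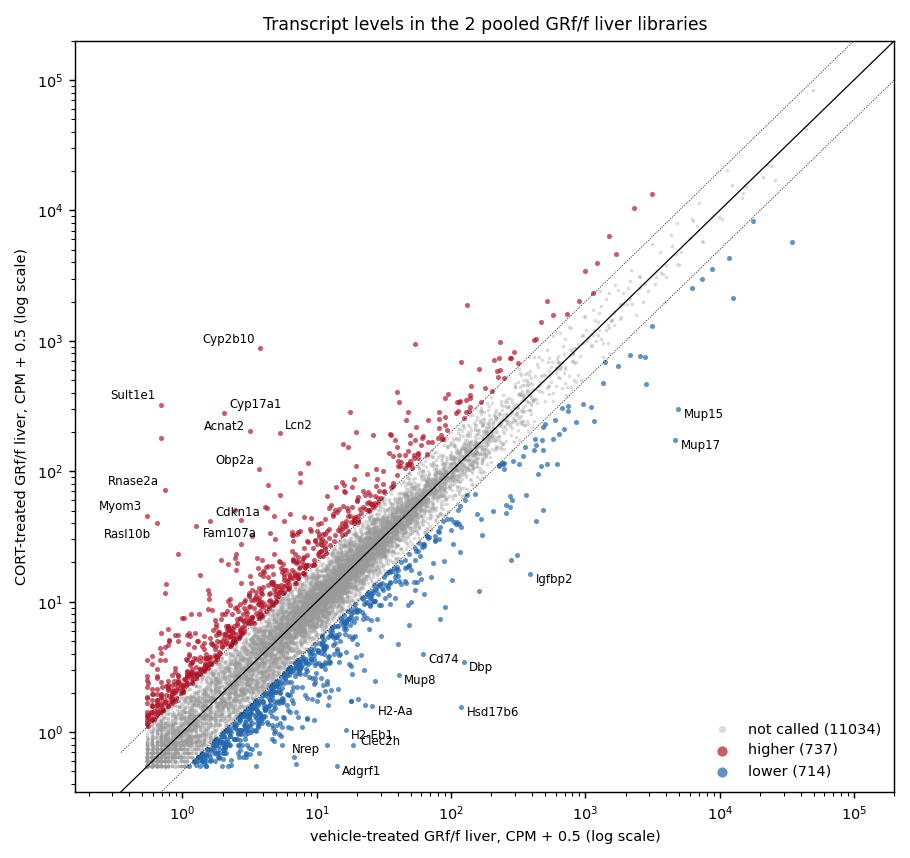
Level of each of the 12485 tested genes in vehicle-treated (x axis) and CORT-treated (y axis) GRf/f liver, in CPM plus 0.5 on log scales, with 1 pooled library per axis. The solid line marks equal levels and the dotted lines a 2-fold difference. The 737 genes called higher are red, the 714 called lower are blue, and most of the 12 largest rises and falls are named.

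The markers of hepatocytes were high in both libraries. The summed level of the 8 hepatocyte markers was 73368 CPM under vehicle and 108104 CPM under CORT. Their median log2 change was 0.27. Of the 8, 1 was called higher (*Apoc3*) and 1 lower (*Apoa1*, from 6186 to 2554.5 CPM). *Alb*, which encodes serum albumin, made up most of the sum, at 49853 CPM (4.99% of the counts) under vehicle and 83251 CPM (8.33%) under CORT. The receptor gene *Nr3c1* (ENSMUST00000115571) stood at 58.0 CPM under vehicle and 45.2 CPM under CORT, with 60.8 and 49.6 CPM in GRmKO liver, and was not called in either pair.

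The largest rises included those of enzymes that act on steroids and foreign compounds. *Cyp17a1* (chromosome 19, 46667165 to 46673172, GRCm38), the steroid 17-alpha-hydroxylase, rose from 1.53 to 279 CPM (log2 change 7.11, 7.01 to 8.06). *Sult1e1*, the oestrogen sulfotransferase, stood at 0.191 CPM under vehicle, close to the floor of 3 counts (0.143 CPM), and at 324 CPM under CORT. In GRmKO liver *Cyp17a1* went from 3.87 to 248 CPM (5.83) and *Sult1e1* from 0.193 to 137 CPM (7.63), both of them called higher. *Rnase2a*, a secreted ribonuclease, rose from 0.238 to 71.1 CPM (log2 change 6.6, 6.99 to 9.84) in GRf/f liver and from 0.384 to 3.34 CPM (2.12) in GRmKO liver. *Acnat2*, which conjugates fatty acids to amino acids, rose from 2.71 to 202 CPM (5.98), although 38.7% of the 31-base words of its transcript also occur in other coding genes. *Rasl10b*, a small GTPase, rose from 0.143 to 39.3 CPM (5.95), *Fam107a*, an actin-bundling protein, from 0.765 to 37.4 CPM (4.91), and *Obp2a*, a lipocalin of the odorant-binding type, from 3.24 to 103 CPM (4.79). *Myom3*, which encodes an M-band protein of skeletal muscle, rose from 0.0478 to 45.1 CPM (log2 change 6.38, 7.4 to 15.19), while 6 skeletal muscle markers summed to 0.716 and 0.650 CPM in the same libraries. Its vehicle value is 1 count, below the floor of 3, so that the size of the rise is poorly known.

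Among the largest falls, *Adgrf1* (chromosome 17, 43270329 to 43324737), an adhesion G protein-coupled receptor, fell from 13.6 to 0.0488 CPM (log2 change -4.69, -13.43 to -5.63), with 1 count under CORT, below the floor of 3, so that the size of the fall is poorly known. *Igfbp2* (chromosome 1, 72824503 to 72852474), which binds insulin-like growth factors, fell from 390.1 to 15.8 CPM (log2 change -4.58, -4.79 to -4.47). *Clec2h*, a C-type lectin, fell from 18.1 to 0.293 CPM (-4.55) and *Nrep*, a small neuronal protein, from 11.5 to 0.293 CPM (-3.92). Both libraries of CORT-treated mice were low in these 4 genes, with 0.240, 29.5, 0.649 and 2.4 CPM in GRmKO liver against 9.9, 473, 11.1 and 10.6 CPM under vehicle. The other large falls were of *Hsd17b6*, *Dbp*, 3 major urinary protein genes and 3 class II genes, which are described with their families. By size, 135 rises and 116 falls were at least 2 on the log2 scale, 41 and 27 at least 3, and 9 and 2 at least 5.

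Genes with known glucocorticoid response elements did not move as a block. Of 28 tested genes, 8 rose and 6 fell, with a median of -0.13. *Fkbp5*, a co-chaperone that lowers the affinity of GR for its ligand, rose from 47.7 to 286 CPM (log2 change 2.57, 2.49 to 2.68). The cell-cycle inhibitor *Cdkn1a* rose from 1.12 to 41.0 CPM (log2 change 4.68, 4.63 to 5.89), the stress gene *Gadd45b* from 0.382 to 5.06 CPM (2.66), and the metallothioneins *Mt1* from 34.5 to 193 CPM (2.47) and *Mt2* from 15.3 to 162 CPM (3.36). *Lcn2*, which encodes the iron-siderophore carrier lipocalin 2, rose from 4.8 to 196 CPM (log2 change 5.21, 5.07 to 5.66). *Tsc22d3*, which encodes the anti-inflammatory protein GILZ, stood at 84.1 and 46.2 CPM (-0.86), and *Sgk1*, a kinase acting on ion channels, at 11.8 and 6.23 CPM (-0.87), neither of them called. The members that fell were Cebpb and Cebpd, Errfi1, Nfkbia, Lpin1 and *Igfbp1*. In GRmKO liver *Fkbp5* went from 70.2 to 147 CPM (1.06), *Cdkn1a* from 4.38 to 10.1 CPM (1.12) and *Lcn2* from 3.16 to 84.9 CPM (4.54), all of them called higher. *Hsd11b1*, the enzyme that regenerates CORT from its inert 11-keto form, stood at 164 and 291 CPM (0.82). *Serpina6*, the plasma globulin that carries CORT, fell from 284 to 59.9 CPM (log2 change -2.24, -2.33 to -2.16), and fell from 403 to 85.4 CPM (-2.23) in GRmKO liver.

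Carbohydrate genes moved unevenly. Of 11 gluconeogenesis genes 3 rose and 1 fell, with a median of 0.50. The last step, glucose-6-phosphatase, was higher at both its parts, with *G6pc* going from 247 to 521.8 CPM (1.08) and the transporter *Slc37a4* from 136 to 289 CPM (1.09). *Gpd1*, the cytosolic glycerol-3-phosphate dehydrogenase, rose from 313 to 671 CPM (1.1). *Pck1*, the cytosolic phosphoenolpyruvate carboxykinase that opens the pathway, fell from 2563 to 762 CPM (log2 change -1.75, -1.78 to -1.72). *Fbp1*, fructose-1,6-bisphosphatase, stood at 783 and 1257 CPM (0.68) and *Pcx*, pyruvate carboxylase, at 312 and 303 CPM (-0.043). The only lower call in the list was that of *Pck1*. Its GRmKO values were 2250.3 and 1894 CPM, and only *G6pc* was called higher in that pair.

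In glycolysis 5 of 24 genes rose and 2 fell, with a median of 0.60. *Pklr*, the liver pyruvate kinase, rose from 118 to 683 CPM (log2 change 2.52, 2.47 to 2.59). *Gpi1*, glucose phosphate isomerase, rose from 114 to 337 CPM (1.57). *Pdk4*, a kinase that shuts off pyruvate dehydrogenase, rose from 0.956 to 4.93 CPM (1.9) at low levels. *Pfkfb3*, which makes the activator fructose-2,6-bisphosphate, fell from 22.2 to 2.51 CPM (-2.91) and *Pfkm*, the muscle-type phosphofructokinase, from 10.5 to 2.78 CPM (-1.74). In GRmKO liver *Pklr* went from 173 to 411 CPM (1.24) and was called higher.

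Glycogen genes held 2 calls among 15 tested, which is 13.3% against 11.6% over all genes. Both were of scaffolds that bring a phosphatase to glycogen. *Ppp1r3b* rose from 16.6 to 152 CPM (log2 change 3.16, 3.04 to 3.36) and *Ppp1r3c* from 39.9 to 109 CPM (log2 change 1.44, 1.33 to 1.56). The synthase *Gys2* stood at 280.1 and 189.6 CPM (-0.56) and the phosphorylase *Pygl* at 315 and 483 CPM (0.61). Vehicle-treated GRmKO liver held 87.0 CPM of *Ppp1r3b* and went to 104 CPM with CORT. Of 19 genes of insulin signalling, 1 rose and 6 fell (median -0.34). *Irs1*, the insulin receptor substrate, rose from 3.86 to 12.9 CPM (1.62), whereas *Irs2*, which insulin represses, stood at 15.2 and 9.85 CPM (-0.60). The transcription factor gene *Foxo3* fell from 46.3 to 17.8 CPM (-1.35), and the pseudokinase genes *Trib1* and *Trib3* fell from 44.7 to 17.6 CPM (-1.32) and from 8.17 to 2.83 CPM (-1.38). *Igfbp1*, an insulin-repressed gene, fell from 37.8 to 13.9 CPM (log2 change -1.41, -1.65 to -1.25) but rose from 18.2 to 45.9 CPM (1.31) in GRmKO liver.

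Genes of fatty acid synthesis held calls in both directions. Of 24 tested, 10 rose, 3 fell and 11 were not called, with a median of 0.54. *Acaca* (chromosome 11, 84129672 to 84401651), which makes malonyl-CoA, rose from 53.0 to 173 CPM (log2 change 1.7, 1.61 to 1.81). *Fasn* (chromosome 11, 120805846 to 120824547), fatty acid synthase, rose from 81.2 to 253 CPM (log2 change 1.63, 1.56 to 1.72). *Elovl6*, which lengthens palmitate, rose from 67.4 to 168 CPM (1.31), and *Mid1ip1*, an activator of acetyl-CoA carboxylase, from 18.4 to 86.8 CPM (2.21). The others that rose were *Tkfc*, *Thrsp*, *Acacb*, *Me1*, *Mlxipl* and Pgd. The 3 members that fell act on polyunsaturated fatty acids, a grouping made after the values were seen. *Fads1*, the delta-5 desaturase, fell from 276 to 52.4 CPM (log2 change -2.39, -2.49 to -2.3), *Fads2*, the delta-6 desaturase, from 258 to 54.7 CPM (log2 change -2.23, -2.33 to -2.15), and the elongase *Elovl2* from 361 to 64.9 CPM (log2 change -2.47, -2.56 to -2.39). *Scd1*, the desaturase of saturated fatty acids, stood at 6233 and 8519.8 CPM (0.45) and the master regulator *Srebf1* at 107 and 64.8 CPM (-0.72). In GRmKO liver the polyunsaturated enzymes fell as well, to 160.2, 111 and 161 CPM. The elongase *Elovl3* was not called in GRf/f liver (0.63) but fell from 62.4 to 25.5 CPM (-1.27) in GRmKO liver. There *Fasn* stood at 241 CPM under vehicle and 202 CPM under CORT and *Acaca* at 73.2 and 94.4 CPM, and 1 member of the list was higher. The GRf/f vehicle library was the lowest of the 4 for *Fasn*, *Acaca*, *Elovl6* and *Mid1ip1*, and its CORT partner was the highest.

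**Figure D2:**
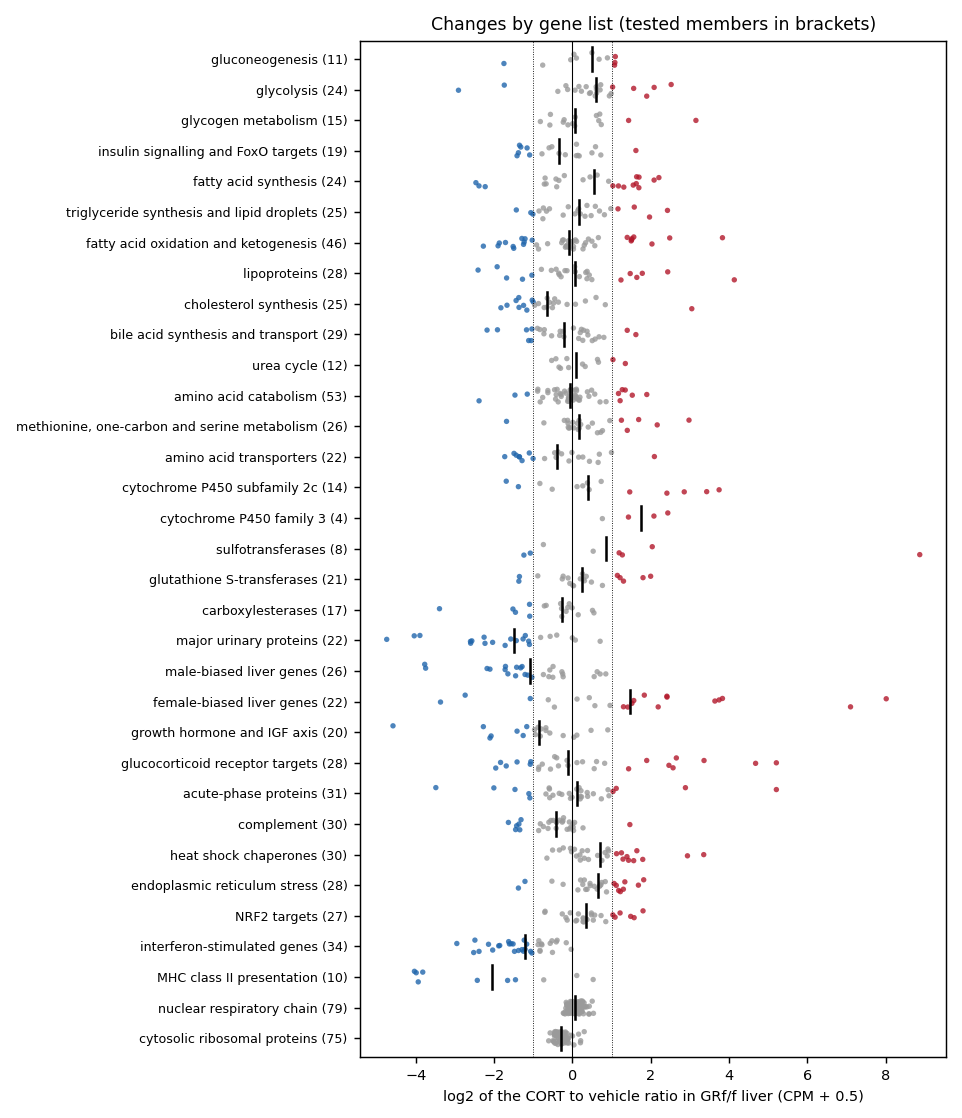
Log2 change with CORT in GRf/f liver (x axis) of each tested member of 33 gene lists (y axis, with the number of tested members), from 1 pooled library per treatment. Points are genes, red where called higher and blue where called lower, the black bar is the median of the list and dotted lines mark 2-fold. The major urinary proteins, the interferon-stimulated genes and the class II genes lie to the left of 0, with medians of -1.5, -1.22 and -2.04, whereas the ribosomal proteins and the nuclear respiratory chain lie within 2-fold.

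Fat storage and secretion genes held calls in both directions. Of 25 triglyceride and lipid droplet genes 4 rose and 3 fell. *Plin5*, a droplet coat protein that ties droplets to mitochondria, rose from 11.5 to 64.1 CPM (log2 change 2.43, 2.28 to 2.68), and *Plin4*, another coat protein, from 1.67 to 6.0 CPM (1.58). *G0s2*, an inhibitor of the main triglyceride lipase, rose from 38.8 to 153 CPM (1.97). That lipase gene, *Pnpla2*, stood at 82.6 and 45.5 CPM (-0.85), and the hormone-sensitive lipase *Lipe* fell from 16.0 to 5.63 CPM (-1.43). *Dgat2*, which makes triglyceride, stood at 529.2 and 449 CPM (-0.24) and *Plin2* at 192 and 268 CPM (0.48). *Cidec*, which fuses droplets, was listed at 0 under vehicle and stood at 2.0 CPM under CORT, and was therefore not tested.

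Of 28 lipoprotein genes 6 rose and 5 fell (median 0.061). *Apoa4* (chromosome 9, 46240696 to 46243459), an apolipoprotein of triglyceride-rich particles, rose from 53.6 to 952 CPM (log2 change 4.14, 4.06 to 4.24). *Apoc3*, which slows the clearance of these particles, rose from 988 to 3406 CPM (1.79), as did *Tm6sf2*, which helps to load them with fat, from 16.2 to 51.7 CPM (1.65). The lipase inhibitor *Angptl8* rose from 14.9 to 82.7 CPM (2.44). *Lpl*, lipoprotein lipase itself, fell from 27.7 to 6.92 CPM (-1.92), and *Pltp*, the phospholipid transfer protein, from 17.0 to 4.95 CPM (-1.68). *Apob*, the core protein of these particles, stood at 1263 and 1639.7 CPM (0.38). In GRmKO liver *Apoa4* went from 54.2 to 757 CPM (3.79) and *Apoc3* from 1218 to 3143 CPM (1.37), both called higher, but *Angptl8* stood at 117 CPM under vehicle and 107 CPM under CORT.

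Fatty acid oxidation held calls in both directions, 8 higher and 11 lower of 46. They divided within the Cyp4a family, whereas *Acot1*, *Acot2*, *Acot3* and *Acot4* all rose. *Cyp4a14* (chromosome 4, 115486200 to 115496142), an omega-hydroxylase of fatty acids, rose from 131 to 1869 CPM (log2 change 3.83, 3.78 to 3.9), and *Cyp4a10* rose from 471 to 1396 CPM (1.57). The neighbouring *Cyp4a12a*, *Cyp4a12b* and *Cyp4a32* fell from 689 to 210.1 CPM (-1.71), from 354 to 153 CPM (-1.21) and from 22.0 to 7.36 CPM (-1.51). These last 3 share 62.2% to 65.3% of their 31-base words with other genes, and *Cyp4a10* shares 45.5%. Reads may therefore be divided among relatives. *Cpt1a*, the gate for fatty acid entry into mitochondria, fell from 321 to 113 CPM (log2 change -1.5, -1.57 to -1.44). *Fabp1*, the fatty acid-binding protein of liver, fell from 2757 to 755 CPM (-1.87). *Bdh1*, which makes 3-hydroxybutyrate, fell from 117 to 23.8 CPM (-2.28). *Cd36*, a fatty acid importer, rose from 17.9 to 74.7 CPM (2.03). *Fgf21*, a hormone of fasting, rose from 0.0955 to 2.84 CPM (log2 change 2.49, 2.97 to 7.97) from 2 counts, which is below the floor of 3. *Mfsd2a*, a carrier of lysophospholipids, fell from 52.3 to 13.6 CPM (-1.9) in GRf/f liver and stood at 73.2 and 140.2 CPM in GRmKO liver, where it was not called.

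Calls among cholesterol genes were mainly falls. Of 25 tested, 9 fell and 1 rose, with a median of -0.65 against 0.0048 over all genes. The rise was that of *Insig2* (chromosome 1, 121304353 to 121332589), whose protein holds back the processing of the regulator of this pathway, and went from 40.6 to 340.4 CPM (log2 change 3.05, 2.96 to 3.17), on an entry that is 1 of 11 coding transcripts annotated for the gene. *Idi1*, *Msmo1* and *Nsdhl*, enzymes of the pathway, fell from 37.5 to 10.2 CPM (-1.83), from 45.1 to 13.8 CPM (-1.67) and from 26.8 to 9.57 CPM (-1.44). *Hmgcs1* stood at 25.2 and 45.6 CPM (0.84), *Sqle* at 3.06 and 1.66 CPM (-0.72) and *Insig1* at 128 and 65.4 CPM (-0.96), none of them called. In GRmKO liver 3 members fell and 1 rose, with a median of -0.31. *Abcg5* and *Abcg8*, which form the sterol exporter into bile, fell from 92.3 to 42.3 CPM (-1.12) and from 104 to 27.1 CPM (-1.92).

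Bile acid genes held 2 rises and 6 falls among 29 tested. *Cyp7a1*, the rate-limiting enzyme of the classic route, stood at 121 and 64.7 CPM (-0.89) and was not called. *Cyp7b1*, the enzyme of the alternative route, fell from 514 to 113 CPM (log2 change -2.18, -2.25 to -2.12). *Cyp8b1*, the 12-alpha-hydroxylase that gives cholic acid, rose from 220.2 to 582 CPM (log2 change 1.4, 1.35 to 1.45), and *Akr1d1*, the 5-beta-reductase shared by both routes and by steroid breakdown, rose from 110.1 to 339.9 CPM (1.62). Of the carriers, the export pump *Abcb11* stood at 326 and 398 CPM (0.29) and the importer *Slc10a1* at 473 and 707 CPM (0.58). The basolateral pump *Abcc3* fell from 151 to 66.8 CPM (-1.17) and the uptake carrier *Slco1a1* from 239 to 116 CPM (-1.04). *Cyp7b1* and *Cyp8b1* were also called in GRmKO liver, in the same directions, at -1.51 and 1.04, and *Cyp7a1* was called lower there at -1.34.

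Nitrogen genes held calls in both directions, beside 11.6% called in either direction over all genes. The urea cycle list held 2 rises and no fall among 12 tested. *Cps1*, its first enzyme, stood at 2522 and 3162 CPM (0.33), *Ass1* at 4779 and 3872 CPM (-0.30) and *Arg1* at 973 and 1543 CPM (0.67), while *Asl*, argininosuccinate lyase, rose from 202 to 415 CPM (1.04). *Rhbg*, an ammonium carrier, rose from 10.3 to 27.0 CPM (1.35), with 60.8% of its 31-base words also found in other genes. Of 53 genes of amino acid breakdown 6 rose and 3 fell, with a median of -0.056. *Tat*, tyrosine aminotransferase, a textbook target of GR in hepatocytes, fell from 2139.9 to 773 CPM (-1.47). *Tdo2* stood at 1242 and 1407 CPM (0.18), *Gpt* at 229 and 174 CPM (-0.39), *Gpt2* at 348 and 387 CPM (0.15), *Sds* at 196 and 185 CPM (-0.087) and *Hal* at 197 and 184 CPM (-0.10). None of these 5 enzymes, which start the breakdown of single amino acids, was called. *Agxt*, which detoxifies glyoxylate, fell from 168 to 31.8 CPM (-2.39). *Gldc* of the glycine cleavage system rose from 90.4 to 262 CPM (1.53), *Acmsd* of tryptophan breakdown from 27.2 to 103 CPM (1.9) and the decarboxylase *Ddc* from 30.9 to 79.6 CPM (1.35).

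The methionine cycle stood out by amount. *Bhmt*, which remakes methionine from homocysteine with betaine, rose from 2319 to 10413 CPM (log2 change 2.17, 2.15 to 2.18), from 0.232% to 1.04% of all counts. It shares 66.4% of its 31-base words with other genes. *Mat1a*, which makes S-adenosylmethionine, rose from 1223 to 3955 CPM (log2 change 1.69, 1.67 to 1.71), from 0.122% to 0.396% of counts. *Dmgdh*, which breaks down the dimethylglycine that the *Bhmt* reaction leaves, rose from 432 to 1029 CPM (1.25). *Gnmt*, which uses up S-adenosylmethionine, stood at 1488 and 2318 CPM (0.64) and *Nnmt* at 65.5 and 128 CPM (0.96). In all 5 of 26 members of the list rose and 1 fell, and their summed level went from 10700.1 to 23963 CPM. In GRmKO liver *Bhmt* went from 2320.1 to 4648 CPM (1.0) and was called, whereas *Mat1a* went from 1875 to 2693 CPM (0.52) and was not.

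Calls among amino acid transporters were mainly falls. Of 22 tested, 8 fell and 1 rose (median -0.39), and their summed level went from 3305 to 1698 CPM. *Slc38a3*, a glutamine carrier, fell from 1346 to 478 CPM (log2 change -1.49, -1.53 to -1.46), *Slc38a4*, a carrier of neutral amino acids, from 742 to 289 CPM (log2 change -1.36, -1.4 to -1.32), and *Slc7a2*, a carrier of arginine, from 483 to 145 CPM (log2 change -1.73, -1.79 to -1.67). The leucine carriers *Slc43a1* and *Slc43a2* fell from 9.89 to 4.34 CPM (-1.1) and from 7.14 to 2.63 CPM (-1.29), and *Slc7a5* from 2.44 to 0.585 CPM (-1.44). *Slc3a1*, a subunit of the cystine carrier, rose from 12.3 to 54.2 CPM (2.09). The alanine and glutamine carrier *Slc38a2* stood at 145 and 106 CPM (-0.45) and the glutamate carrier *Slc1a2* at 115 and 109 CPM (-0.088). The median of the list in GRmKO liver was 0.039, with 2 falls and 1 rise.

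Cytochrome P450 genes, which oxidise drugs, steroids and fatty acids, held calls in both directions, in some cases within a subfamily. In the 2b subfamily both tested members rose. *Cyp2b10*, the usual marker of the receptor CAR, rose from 3.3 to 877 CPM (log2 change 7.85, 7.72 to 8.42), and *Cyp2b9* rose from 0.382 to 1.86 CPM (1.42). In the 3a subfamily 3 of 4 tested genes rose, out of 7 listed. *Cyp3a41a*, which the pattern of symbols used for the list missed, was added after its values were seen. It was called higher with 0.0479 and 2.0 CPM, the first of them 1 count. *Cyp3a11*, the main drug-oxidising enzyme of mouse liver, rose from 1507 to 6386 CPM (log2 change 2.08, 2.07 to 2.1), *Cyp3a25* from 272 to 735 CPM (1.43) and *Cyp3a59* from 13.5 to 75.4 CPM (2.44). In the 2c subfamily 5 of 14 rose and 2 fell. *Cyp2c29* rose from 1692 to 4671 CPM (1.46), *Cyp2c38* from 25.7 to 189.7 CPM (2.86) and *Cyp2c39* from 1.44 to 20.4 CPM (3.43), and *Cyp2c23*, which makes epoxides of arachidonic acid, fell from 572 to 177 CPM (-1.69). Of the 4 2a genes only *Cyp2a22* was called, which rose from 1.98 to 50.4 CPM (log2 change 4.36, 4.24 to 5.17), while the more abundant *Cyp2a5* stood at 1510.3 and 800.4 CPM (-0.92) and the sum of the 2a genes at 2163 and 1995 CPM. Family 1 held 1 rise, that of *Cyp1b1* from 0.191 to 1.12 CPM (1.23), and 1 fall, as *Cyp1a2*, which oxidises caffeine, fell from 1098 to 310.1 CPM (log2 change -1.82, -1.86 to -1.78), and *Cyp2e1*, which oxidises ethanol, fell from 8738 to 3557 CPM (log2 change -1.3, -1.31 to -1.28). None of 8 2d genes was called, and all 8 had a log2 change above 0. The 3a entries share 32.4% to 48.9% of their 31-base words with other genes, *Cyp2a22* shares 38.8% and *Cyp2b10* 20%, so that reads may be divided among relatives. The receptors behind these families were not called, with *Nr1i3* (CAR) at 51.2 and 87.3 CPM (0.76) and *Nr1i2* (PXR) at 48.8 and 57.7 CPM (0.24). *Alas1*, the rate-limiting enzyme of haem synthesis, fell from 485 to 50.1 CPM (log2 change -3.26, -3.37 to -3.18), and the electron donor *Por* stood at 535 and 454 CPM (-0.24). In GRmKO liver *Cyp2b10* went from 6.1 to 362 CPM (5.78) and *Cyp3a11* from 2438 to 4194 CPM (0.78), of which the first was called, while *Cyp2e1* and *Cyp1a2* fell by 1.17 and 1.03 on the log2 scale.

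Conjugating enzymes were mixed. Among sulfotransferases 4 of 8 rose and 2 fell. *Sult1d1* rose from 94.7 to 391 CPM (2.04) and *Sult1a1* from 180.0 to 436 CPM (1.28), whereas *Sult2a8*, which acts on bile acids, fell from 419 to 177 CPM (-1.24). *Ugt1a9*, a glucuronosyltransferase of phenols, rose from 38.8 to 402 CPM (log2 change 3.36, 3.27 to 3.48), while *Ugt1a1*, which clears bilirubin, fell from 666 to 307 CPM (-1.12). These entries of the Ugt1a cluster share 58.5% to 67% of their 31-base words, because its members use common last exons, so that the opposite directions depend on how reads were assigned to first exons. Among glutathione S-transferases 5 of 21 rose and 2 fell, with *Gstm3* going from 80.9 to 284 CPM (1.8) and *Gstt3* from 54.6 to 219.7 CPM (2.0). Carboxylesterases, which split esters and lipids, held 5 falls and no rise among 17. *Ces3a* fell from 1747 to 637 CPM (-1.46) and *Ces3b*, its neighbour, from 416 to 145 CPM (-1.52), and *Ces4a* fell from 6.31 to 0.146 CPM (log2 change -3.4, -7.72 to -3.85). Of the uptake carriers, *Slc22a28* fell from 17.4 to 1.23 CPM (-3.37) and *Slc22a3* rose from 2.66 to 10.6 CPM (1.81). *Slc22a28* shares 68.2% of its 31-base words with other genes, *Ces3a* 42.5% and *Ces3b* 36.1%.

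Mouse liver is strongly different between the sexes, and this difference is kept up by the pulsed pattern of growth hormone in males. Of 26 tested genes known to be higher in males, 14 fell and 0 rose, with a median of -1.09. Of 22 tested genes known to be higher in females, 13 rose and 3 fell, with a median of 1.47. A further 15 genes of the female list were at 0 in at least 1 library and were not tested. All 4 libraries came from males. *Hsd3b5*, a male enzyme of steroid metabolism, fell from 309 to 22.1 CPM (log2 change -3.77, -3.94 to -3.67). *Nudt7*, a hydrolase of coenzyme A, fell from 280.0 to 20.3 CPM (log2 change -3.75, -3.93 to -3.64), and the growth factor receptor *Egfr* from 471 to 109 CPM (log2 change -2.11, -2.18 to -2.05). The serpin *Serpina1e*, which shares 56% of its 31-base words with other genes, fell from 7398 to 2958 CPM (-1.32). The complement genes *C8a* and *C8b* fell from 477 to 174 CPM (-1.45) and from 428 to 159 CPM (-1.43). On the female side *Cyp39a1*, a hydroxylase of oxysterols, rose from 4.81 to 65.7 CPM (log2 change 3.64, 3.48 to 4.07). *Cyp2c40* and *Cyp2c69*, which share 84.5% and 65.9% of their 31-base words with other genes, rose from 45.7 to 246 CPM (2.41) and from 8.16 to 116 CPM (3.75). The female genes that fell were *Slc22a28*, *Abcd2* and *Hamp2*, a hepcidin gene, which fell from 13.9 to 1.65 CPM (-2.74). In GRmKO liver 16 male genes fell and 11 female genes rose, with medians of -1.15 and 1.06.

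The steroid-converting enzymes include the tested gene with the largest fall. *Hsd17b6* (chromosome 10, 127990936 to 128007611), an oxidoreductase of androgens, stood at 119 CPM under vehicle and 1.05 CPM under CORT, and at 122 and 9.27 CPM in GRmKO liver, on an entry that is 1 of 6 coding transcripts. Of 28 tested in the list, only *Hsd17b6*, *Hsd3b5* and *Serpina6* fell and only *Akr1d1* rose. *Srd5a1*, the 5-alpha-reductase, stood at 155 and 140.1 CPM (-0.14).

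Major urinary proteins, the pheromone carriers that male liver secretes in bulk, fell in most cases. Of 22 genes 16 fell and 0 rose, with a median of -1.5, and their summed level went from 130819 to 56042 CPM. *Mup7* fell from 3.47% to 0.571% of all counts and *Mup14* from 1.26% to 0.212%. *Mup17* and *Mup15* fell the most, to 174 CPM from 4667 CPM and to 298 CPM from 4921 CPM, and *Mup8* had the next largest log2 fall. *Mup20*, which encodes the pheromone darcin, stood apart at 7024 and 11479 CPM (0.71), and *Mup3* stood at 5014 and 3799 CPM (-0.40). The entries for *Mup1*, *Mup7*, *Mup8*, *Mup9*, *Mup14* and *Mup15* share 96.5% to 100% of their 31-base words with other genes. The split among them is therefore uncertain, and the sum of the family depends on it less. *Mup20* and *Mup21*, which share 27.8% and 33.7%, can be told apart better, and *Mup21* fell from 155 to 46.6 CPM (-1.72). In GRmKO liver 17 fell and 0 rose, and 15 genes were called lower in both pairs.

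The growth hormone axis held falls and no rise. Of 20 tested, 7 fell and 0 rose (median -0.85). *Socs2* and *Cish*, feedback inhibitors that growth hormone switches on through STAT5, fell from 10.7 to 1.8 CPM (log2 change -2.28, -3.1 to -2.05) and from 14.2 to 2.98 CPM (log2 change -2.08, -2.67 to -1.85). The receptor *Ghr* stood at 372 and 202 CPM (-0.88), the hormone *Igf1* at 295 and 167 CPM (-0.82) and its carrier *Igfals* at 128 and 66.2 CPM (-0.95), all lower but not called. The repressor *Bcl6* stood at 35.5 and 23.6 CPM (-0.58) in GRf/f liver and fell from 39.9 to 6.38 CPM (-2.55) in GRmKO liver. The list held 2 falls and 1 rise in that pair, with a median of -0.24, and *Socs2* stood at 10.9 and 9.27 CPM there.

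Among secreted hormones of the liver, *Inhba*, the subunit of activin A, rose from 2.22 to 27.4 CPM (log2 change 3.36, 3.2 to 4.11), and *Enho*, which encodes adropin, fell from 7.93 to 0.782 CPM (log2 change -2.72, -4.18 to -2.6). *Gdf15*, a stress hormone, stood at 9.85 and 19.9 CPM (0.98) in GRf/f liver and rose from 6.22 to 48.2 CPM (2.86) in GRmKO liver. Acute-phase genes, which inflammation raises, held 4 rises and 5 falls among 31. The serum amyloids fell, *Saa1* from 82.2 to 6.86 CPM (log2 change -3.49, -3.84 to -3.33), *Saa2* from 9.2 to 1.91 CPM (-2.01) and *Saa4* from 502 to 232 CPM (-1.11). *Orm3*, an orosomucoid, rose from 4.01 to 32.9 CPM (log2 change 2.89, 2.71 to 3.38), and *Hp*, haptoglobin, stood at 1285 and 2414 CPM (0.91). Coagulation factors held 2 falls and no rise among 28, which is 7.14% lower and near the 5.72% over all genes. The falls were those of *F11* from 62.7 to 27.3 CPM (-1.18) and *Tfpi* from 2.66 to 0.901 CPM (-1.18). *F2*, prothrombin, stood at 1269 and 1217 CPM (-0.06). Complement genes held 6 falls and 1 rise among 30. *C4bp*, an inhibitor of the cascade, rose from 295 to 816 CPM (1.47), and *C3* stood at 4431 and 5345 CPM (0.27). Of the falls *C1qa* and *C1qb* are made by macrophages and are among the markers given below. Of the serpins, *Serpina7*, which carries thyroid hormone, fell from 17.9 to 4.64 CPM (-1.84), and *Serpine2*, an inhibitor of thrombin, rose from 19.2 to 109 CPM (log2 change 2.48, 2.36 to 2.67). Hepcidin, encoded by *Hamp*, stood at 534 and 391 CPM (-0.45), while the transferrin receptor *Tfrc* rose from 10.9 to 28.0 CPM (1.32) and the manganese exporter *Slc30a10* from 15.4 to 78.1 CPM (log2 change 2.31, 2.17 to 2.52).

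Chaperones of the cytosol held rises and no fall. Of 30 heat shock genes 10 rose and 0 fell, with 24 log2 changes above 0 and a median of 0.70. *Hspa1b* and *Hspa1a*, the stress-induced HSP70 genes, rose from 19.2 to 201 CPM (log2 change 3.36, 3.24 to 3.54) and from 2.07 to 19.2 CPM (log2 change 2.94, 2.77 to 3.71), and as near copies they share 68% and 65.4% of their 31-base words with other genes. *Hsp90aa1*, the inducible HSP90 that holds GR ready for its ligand, rose from 129 to 350.1 CPM (1.44). The constitutive *Hspa8* rose from 730.5 to 1597 CPM (1.13), the co-chaperones *Dnajb1* and *Bag3* from 24.4 to 65.1 CPM (1.39) and from 44.6 to 133 CPM (1.57), the nucleotide exchange factor *Hsph1* from 28.4 to 70.4 CPM (1.29) and the small heat shock gene *Hspb1* from 19.9 to 63.4 CPM (1.65). In GRmKO liver 2 of the list were higher, with a median of 0.45, and *Hspa1b* stood at 43.8 CPM under vehicle and 70.8 CPM under CORT. Many genes that heat shock factor switches on carry the inverted repeat GAANNTTC before their start. In RefSeq promoters (GRCm38.p6, 300 bases around the start, most of them before it, both strands) it was found in 13 of the 24 list members with a window (54.2%), in 7.19% of 9909 tested genes and in 7.86% of all 32851 windows. Parts of the windows of *Hspb1* (chr5:135887777-135887854, plus strand) and *Hspa1b* (chr17:34959310-34959367, minus strand) are shown because both genes rose, with each match in capitals:
Hspb1: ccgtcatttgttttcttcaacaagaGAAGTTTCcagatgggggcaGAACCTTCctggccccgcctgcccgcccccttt
Hspa1b: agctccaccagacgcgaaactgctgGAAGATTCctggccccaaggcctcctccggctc
The windows of *Hspa1a*, *Bag3* and *Hsph1*, which rose as well, hold 1 match each at most, and those of *Dnajb1*, *Dnajb4* and *Hspa4l*, which also rose, hold none. A match is a run of letters and not a measured binding site.

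Genes of endoplasmic reticulum stress also rose in GRf/f liver, 8 of 28, against 2 falls, with a median of 0.66. *Hspa5*, the main chaperone of the compartment, rose from 412 to 1018 CPM (log2 change 1.3, 1.27 to 1.34), and the disulfide isomerase *Pdia4* from 109 to 277 CPM (1.34). The secreted proteins *Creld2* and *Manf* rose from 21.5 to 70.3 CPM (1.69) and from 45.1 to 106 CPM (1.23), and *Ddit3*, the transcription factor CHOP, from 2.66 to 10.7 CPM (1.82). In GRmKO liver the same genes stood at log2 changes of -0.032 for *Hspa5*, 0.13 for *Pdia4*, -0.36 for *Creld2*, -0.0073 for *Manf* and -0.33 for *Ddit3*, none of them called, with a list median of -0.019. Vehicle-treated GRmKO liver held more *Creld2* (43.2 CPM) and *Ddit3* (6.65 CPM) than vehicle-treated GRf/f liver did. Whether the pairs differ was not tested, since each has 1 library per treatment. Of 27 genes of the oxidant response 6 rose and 0 fell (median 0.34). *Nfe2l2*, the regulator itself, rose from 41.6 to 118 CPM (1.49), *Osgin1* from 47.5 to 143 CPM (1.58) and the quinone reductase *Nqo1* from 3.15 to 7.28 CPM (1.09).

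**Figure D3:**
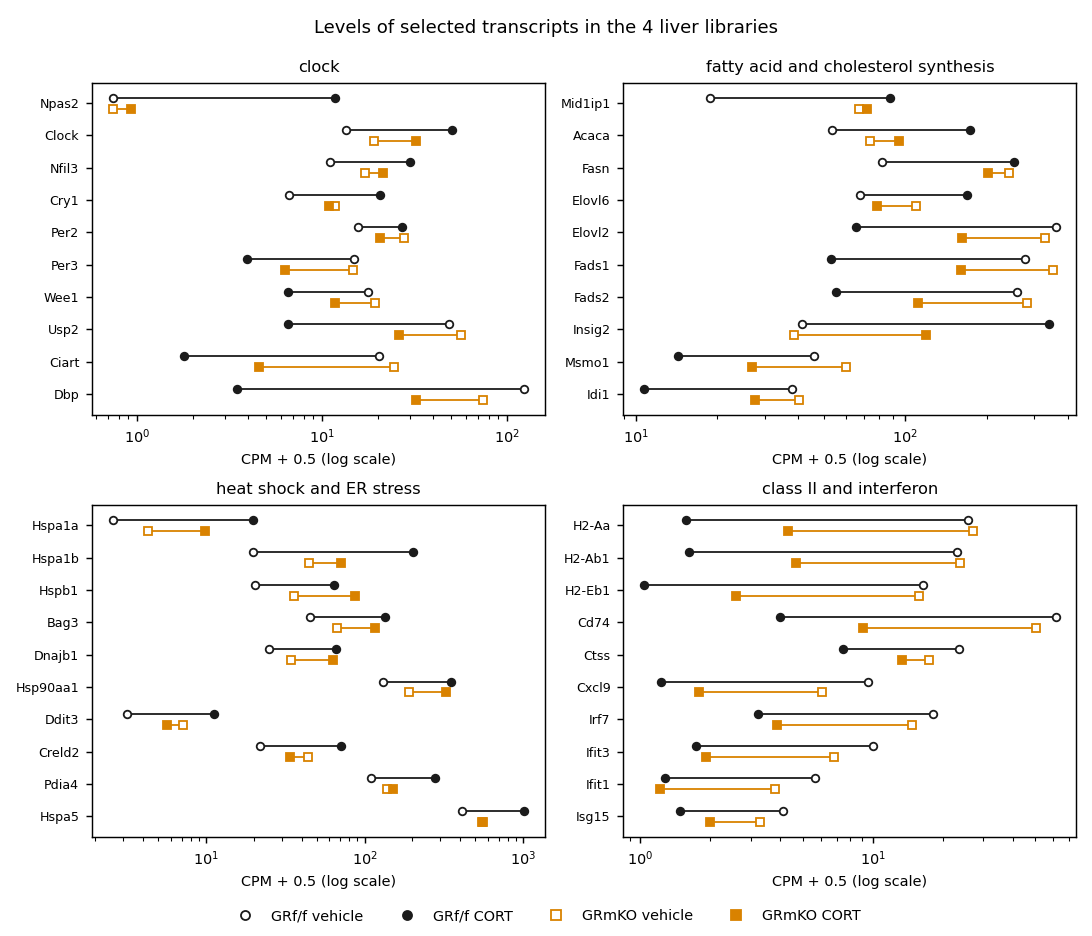
Levels of 40 transcripts in the 4 liver libraries, in CPM plus 0.5 on a log scale (x axes), by gene (y axes). Black circles are GRf/f and orange squares GRmKO liver, open under vehicle and filled under CORT, with 1 pooled library per point. Hspa5 goes from 412 to 1018 CPM in GRf/f liver and stands at 561 and 549 CPM in GRmKO liver, whereas H2-Aa is lower with CORT in both.

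Circadian genes changed in both the activating and the output arm. The clock is a loop in which CLOCK or NPAS2 with BMAL1 switches on its own repressors and output genes at E-boxes. Of 7 genes listed with the activators, which include *Nfil3*, a repressor of D-box genes, 3 rose and 0 fell. *Npas2* (chromosome 1, 39193731 to 39363236) rose from 0.239 to 11.3 CPM (log2 change 3.99, 4.31 to 7.19), *Clock* from 13.1 to 50.2 CPM (1.9) and *Nfil3* from 10.5 to 29.5 CPM (1.45). *Arntl*, which encodes BMAL1, was at 0 in vehicle-treated GRmKO liver and so was not tested. It stood at 0.573 CPM under vehicle and 13.9 CPM under CORT in GRf/f liver. Of 16 repressors and outputs 5 fell and 3 rose. *Dbp* (chromosome 7, 45705088 to 45710203), the D-box activator, fell from 124 CPM under vehicle to 2.97 CPM under CORT. *Ciart*, a repressor of the loop, fell from 19.9 to 1.29 CPM (log2 change -3.51, -4.61 to -3.4), and the deubiquitinase *Usp2* from 48.2 to 6.09 CPM (log2 change -2.88, -3.26 to -2.71). *Per3* fell from 14.5 to 3.46 CPM (-1.92) and the cell-cycle kinase *Wee1* from 17.3 to 6.1 CPM (-1.43), but the repressor *Cry1* rose from 6.12 to 20.2 CPM (1.65). *Per2* stood at 15.2 and 26.5 CPM (0.79), *Nr1d1* at 66.7 and 61.7 CPM (-0.11), *Nr1d2* at 75.3 and 42.0 CPM (-0.84) and *Tef* at 91.8 and 46.0 CPM (-0.99). The entry for *Per1* stood at 26.3 CPM under vehicle and was at 0 under CORT, and at 0 and 4.82 CPM in GRmKO liver, as 1 of 5 coding transcripts. In GRmKO liver *Dbp* went from 74.1 to 31.6 CPM (-1.22), *Ciart* from 24.2 to 4.06 CPM (-2.44) and *Usp2* from 56.1 to 25.8 CPM (-1.11), all called lower, whereas *Npas2* stood at 0.243 and 0.432 CPM. Each library is a single time point, so that a shifted phase and a lower amplitude cannot be told apart.

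The E-box CACGTG was found in the promoter window of 8 of the 15 repressor and output genes that had one (53.3%), in 11.4% of 9909 tested genes and in 7.15% of all windows. The D-box TTATGTAA was found in 1 of the 15, in 0.727% of tested genes and in 0.938% of windows. Parts of the windows of *Ciart* (chr3:95882242-95882369, minus strand), with 3 E-boxes, and *Per3* (chr4:151044791-151044895, minus strand), with 2 D-boxes, are shown because both genes fell, with each match in capitals:
Ciart: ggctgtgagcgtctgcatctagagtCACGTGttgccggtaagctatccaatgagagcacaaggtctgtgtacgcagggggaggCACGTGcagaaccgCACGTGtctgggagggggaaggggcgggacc
Per3: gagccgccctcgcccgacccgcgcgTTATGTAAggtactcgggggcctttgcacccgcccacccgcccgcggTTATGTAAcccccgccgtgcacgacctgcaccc
*Cry1*, *Lonrf3* and *Ppp1r3c*, which rose, hold 1 E-box each. Of the genes that fell, *Ciart* holds E-boxes, the windows of *Dbp*, *Usp2* and *Per3* hold none, and *Wee1* had no window. The E-box was thus found in genes of both directions, and whether it goes with direction was not tested.

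Markers of resident macrophages and several groups of immune genes were lower. Of 10 Kupffer cell or macrophage markers 8 fell and 0 rose, with a median of -1.57, and their summed level was 290.3 CPM under vehicle and 93.8 CPM under CORT. *Csf1r*, the receptor that keeps macrophages alive, fell from 29.4 to 4.92 CPM (-2.46), and *Clec4f*, a lectin of Kupffer cells, from 49.5 to 17.1 CPM (-1.5), while *Marco* stood at 3.26 and 6.88 CPM (0.97). In GRmKO liver the sums were 229.7 and 142 CPM. In a whole liver fewer cells of a type and less RNA per cell cannot be told apart. Class II presentation genes, by which dendritic cells, B cells and macrophages show peptides to T cells, also held falls. Of 10 tested 7 fell and 0 rose, with a median of -2.04, and their summed level went from 157 to 16.6 CPM. *H2-Aa* (chromosome 17, 34282744 to 34287823) fell from 25.4 to 1.08 CPM (log2 change -4.04, -5.25 to -3.95), *H2-Ab1* from 22.5 to 1.12 CPM (log2 change -3.82, -5.0 to -3.72) and *H2-Eb1* from 16.0 to 0.538 CPM (log2 change -3.99, -5.91 to -4.04). Their invariant chain *Cd74* fell from 60.9 to 3.5 CPM (log2 change -3.94, -4.48 to -3.77), and the loading factor *H2-DMa* from 3.25 to 0.195 CPM (-2.43). *Ctss*, the protease that trims the invariant chain, fell from 23.1 to 6.99 CPM (-1.66). In GRmKO liver 6 fell, with *H2-Aa* going from 26.6 to 3.81 CPM (-2.65). The B cell markers, 6 in number, summed to 6.97 and 1.32 CPM in GRf/f liver and the 9 T or NK cell markers to 2.56 and 1.12 CPM. The part of these cells in the class II result was not tested.

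Interferon-stimulated genes, which hepatocytes and immune cells both express, held many falls. Of 34 tested 21 fell and 0 rose, and 0 had a log2 change above 0, with a median of -1.22. *Irf7*, a transcription factor of the response, fell from 17.6 to 2.72 CPM (log2 change -2.49, -3.12 to -2.28). *Ifit1* and *Ifit3*, which bind foreign RNA, fell from 5.16 to 0.781 CPM (-2.14) and from 9.5 to 1.24 CPM (-2.52), the latter sharing 61.8% of its 31-base words with other genes. *Isg15*, a ubiquitin-like modifier, fell from 3.63 to 0.979 CPM (-1.48), and *Usp18*, which removes it, from 4.16 to 0.391 CPM (-2.39). *Cxcl9* and *Cxcl10*, chemokines that draw T cells, fell from 9.04 to 0.732 CPM (log2 change -2.95, -4.49 to -2.86) and from 2.2 to 0.538 CPM (-1.38). Of 19 chemokine genes 6 fell and 0 rose. Of the interferon-stimulated genes 11 fell and 0 rose in GRmKO liver, with a median of -0.87. The immunoproteasome subunits *Psmb8* and *Psmb10* fell from 9.79 to 3.71 CPM (-1.29) and from 18.7 to 9.09 CPM (-1.0) and were the only called genes among 39 proteasome genes. The macrophage markers moved the same way, and their part in the interferon result was not tested.

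The interferon response element, taken as GAAA, any 2 bases and GAAA again, was found on either strand in 15 of the 28 list members with a promoter window (53.6%), in 3.78% of 9909 tested genes and in 3.44% of all windows. Parts of the windows of *Ifit1* (chr19:34640760-34640838, plus strand) and *Isg15* (chr4:156200850-156200921, minus strand) are shown because both genes fell, with each match in capitals. In *Ifit1* both matches are on the opposite strand and so read as their reverse complement, and in *Isg15* the 3 matches overlap:
Ifit1: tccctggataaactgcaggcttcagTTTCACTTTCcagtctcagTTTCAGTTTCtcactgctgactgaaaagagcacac
Isg15: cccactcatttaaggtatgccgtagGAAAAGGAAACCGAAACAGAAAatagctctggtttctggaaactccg
The E-box and D-box were chosen with earlier results known, and the heat shock and interferon motifs after these data were seen, so that the shares describe these lists only.

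**Figure D4:**
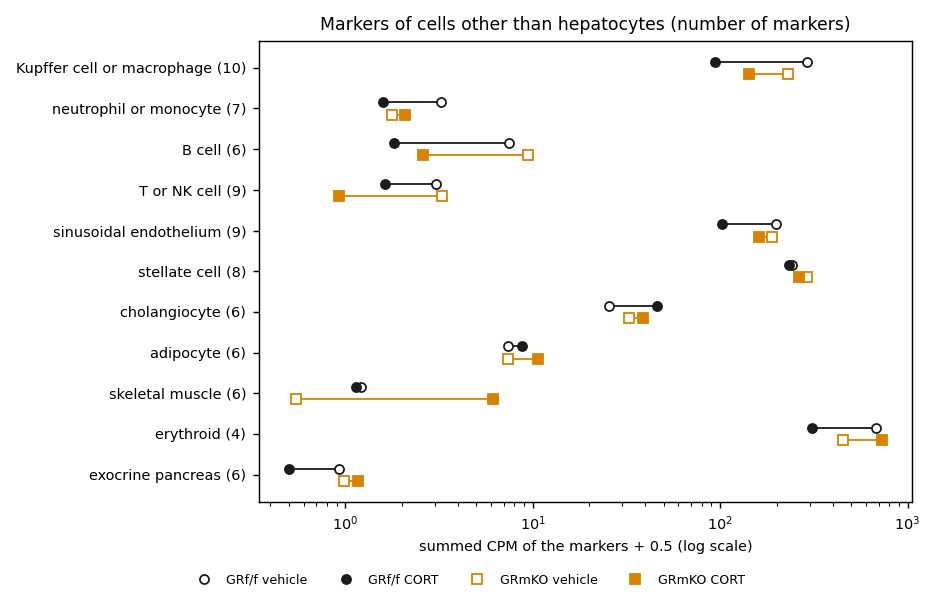
Summed level of the markers of 11 cell types other than hepatocytes (y axis, with the number of markers) in the 4 liver libraries, in CPM plus 0.5 on a log scale (x axis). Black circles are GRf/f and orange squares GRmKO liver, open under vehicle and filled under CORT, with 1 pooled library per point. Kupffer cell or macrophage markers go from 290.3 to 93.8 CPM in GRf/f liver, whereas stellate cell markers stand at 241 and 233 CPM.

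Markers of other cells were also summed. Of 9 markers of sinusoidal endothelium 4 fell and 1 rose, and their sum was 197 CPM under vehicle and 102 CPM under CORT. None of 8 stellate cell markers was called. Of the cholangiocyte markers the sum was 24.9 and 45.5 CPM, and only *Sox9* was called, rising from 2.01 to 17.0 CPM (2.81), while *Krt7* and *Krt19* stood at 0.813 and 0.634 CPM (-0.21) and 0.955 and 0.830 CPM (-0.13). The erythroid markers summed to 681 and 309 CPM in GRf/f liver and to 452 and 732 CPM in GRmKO liver. Neutrophil or monocyte markers summed to 2.73 and 1.09 CPM, adipocyte markers to 6.91 and 8.25 CPM, and pancreas markers to 0.430 and 0 CPM, in GRf/f liver. Collagen genes held 3 rises and 2 falls among 25 tested. *Col3a1*, a collagen of scars, fell from 15.9 to 5.12 CPM (-1.54) and *Col1a1* stood at 6.69 and 4.19 CPM (-0.62).

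Genes of growth control were divided. *Myc* rose from 0.580 to 5.02 CPM (log2 change 2.35, 2.27 to 4.13) and *Klf10* from 9.94 to 30.9 CPM (1.59), whereas *Fos* fell from 3.44 to 0.683 CPM (-1.74) and *Gadd45g* from 19.6 to 4.2 CPM (log2 change -2.09, -2.57 to -1.88). *Ccnd1*, the cyclin of entry into the cell cycle, fell from 17.0 to 2.85 CPM (log2 change -2.39, -3.02 to -2.19), but *Rrm2*, a subunit of ribonucleotide reductase, rose from 3.39 to 20.3 CPM (2.42) and *E2f7*, a repressor of the cell cycle, from 0.191 to 5.21 CPM (3.05). *Mki67*, a marker of dividing cells, stood at 0.860 and 0.341 CPM (-0.69). Lists of housekeeping genes were flat. None of 75 ribosomal protein genes, 79 nuclear genes of the respiratory chain or 13 mitochondrial ones was called, and their log2 changes lay between -0.61 and 0.30, between -0.23 and 0.54 and between -0.28 and -0.037. The ribosomal median was -0.28, lower than that of all genes. Genes of the 2 ends of the liver lobule did not separate, with 3 rises and 2 falls among 20 pericentral genes (median -0.15) and 1 rise and 3 falls among 20 periportal genes (median 0.029). *Glul*, the glutamine synthetase of the innermost pericentral cells, stood at 1016 and 1216 CPM (0.26), and *Cdh1*, the periportal E-cadherin, fell from 24.1 to 5.66 CPM (-2.0).

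The GRmKO pair, made from other mice with the same floxed gene, gave an independent view of the called genes. Of the 737 genes higher in GRf/f liver, 177 (24%) were also called higher in GRmKO liver, beside 2.8% of all tested genes. They were 50.7% of the 349 higher there, beside 5.9% of all tested genes higher in GRf/f liver. Another 13 were called lower, and 561 (76.1%) had the same sign. Of the 714 lower genes, 193 (27%) were also called lower in GRmKO liver, beside 2.82% of all tested genes. They were 54.8% of the 352 lower there, beside 5.72% of all tested genes lower in GRf/f liver. Another 8 were called higher, and 603 (84.5%) had the same sign. The share with the same sign over all tested genes was not computed. The median change of the higher genes was 1.39 in GRf/f liver, where they were chosen, and 0.51 in GRmKO liver, and that of the lower genes -1.35 and -0.62. The genes were chosen on the GRf/f values, so that the 2 medians do not compare the pairs. The difference between the pairs was not tested.

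**Figure D5:**
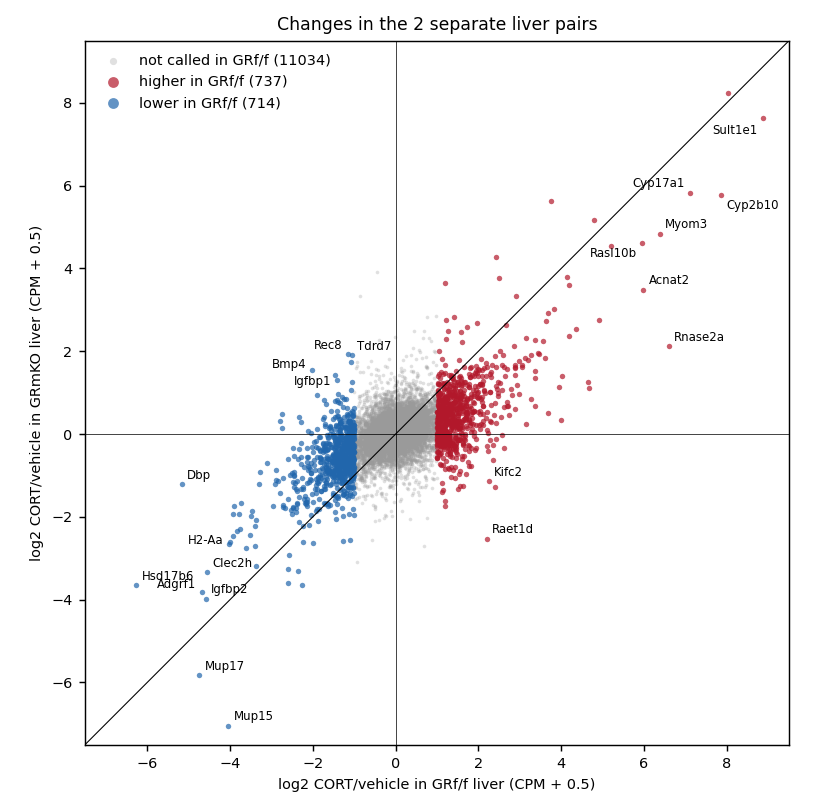
Log2 change with CORT in GRf/f liver (x axis) and in GRmKO liver (y axis) for each of the 12485 tested genes, from 1 pooled library per group. Red and blue genes were called higher or lower in GRf/f liver, the diagonal marks equal changes, and some genes of the largest changes and some of those called in opposite directions are named. Sult1e1 lies at the upper right, and Raet1d, at 2.2 and -2.53, below the horizontal line.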

How the data were processed

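RNA from liver was measured in 4 pooled libraries by 100-bp paired-end sequencing. The authors quantified reads with Salmon 1.2.1 on protein-coding transcripts and deposited expected counts from tximport (length-scaled, R 3.5.0), with 1 transcript kept per gene name. Submitters' processing notes name mm10. The deposited estimated counts were rounded to whole numbers for intervals only.

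Each value was divided by the library total and multiplied by 1000000, and 0.5 was added before log2 ratios were taken. The 12485 genes above 0 in all 4 liver libraries were tested, and 9767 were not. Counting intervals (95%, Clopper-Pearson) and the floor of 3 counts cover counting error only, and with 1 library per group no replicate spread is known. The authors' simulation-based test was not used. The procedure was checked on simulated data. Members of the lists, markers and motifs were chosen with earlier results of these data known. Values are given for lead genes fixed per list, for up to 4 other called members of largest change (8 in families taken by symbol), for the 12 largest rises and falls, for the 5 largest in each direction among genes not tested, and for up to 8 genes called oppositely in the 2 pairs. Marker genes, and members named without values, complete a list and were chosen after values were seen. Some genes that this rule takes are not reported here.

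Gene positions and coding transcripts came from GENCODE M21 (GRCm38), and promoter windows from RefSeq (GRCm38.p6). Shared sequence was the percentage of a transcript's 31-base words found in other coding genes. Libraries of other tissues were not used here. Alternatives covered scaling (edgeR 4.0.16 TMM, median of ratios), the added constant, the filter, the fold threshold and, added after the data were seen, genes with 1 coding transcript. Python 3.11.15, pandas 2.3.3, scipy 1.17.1 and R 4.3.3 were used.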

Additional observations from a re-analysis of the deposited data

Results flagged for a closer look

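The 9 genes below were called with CORT in opposite directions in the GRf/f and GRmKO pairs, with 1 library per group, and the difference was not tested for any of them. *Raet1d* and *Raet1e*, which encode ligands of an activating receptor of natural killer cells, had log2 changes of 2.2 and 2.39 in GRf/f liver and of -2.53 and -1.28 in GRmKO liver, differences of 4.73 and 3.67. They share 65.1% and 53.7% of their 31-base words with other genes, so that reads may be divided among relatives. *Bmp4*, a growth factor, differed by -3.57 (-2.03 against 1.54), with levels between 0.135 and 2.15 CPM. *Kifc2*, a kinesin, differed by 3.39 and *Rec8*, a cohesin subunit, by -3.08. *Tdrd7*, a Tudor-domain protein, differed by -2.96, with 17.6 and 8.19 CPM in GRf/f liver and 4.69 and 18.9 CPM in GRmKO liver. The zinc-finger gene *Zfp870* differed by 2.92 and the ubiquitin ligase gene *Rnf111* by 2.89. *Igfbp1* differed by -2.73, with 37.8 and 13.9 CPM in GRf/f liver and 18.2 and 45.9 CPM in GRmKO liver. In all 21 genes were called in opposite directions.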

How the results depend on the processing

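The counts of 737 higher and 714 lower genes were 729 and 728 with TMM factors, 738 and 723 with median-of-ratios factors, 569 and 533 with 1 CPM added, 931 and 962 with 0.1 CPM added, 953 and 973 without the filter, and 534 and 494 among genes averaging 50 counts or more. They moved by over 1.5 times with a 1.5-fold threshold (1686 and 1588), with a 4-fold threshold (135 and 116) and among genes with 1 coding transcript (215 and 240), which follows from the threshold or from the 3689 genes left. No called gene and no list median of at least 1 on the log2 scale changed sign. The added constant, the filter and the fold threshold cannot change the sign of a gene's ratio, so for genes only the scaling could. Sizes did shift: among genes with 1 coding transcript, 38 list medians moved and 22 stayed the same. Among genes with 1 coding transcript the interferon-stimulated list held 10 falls and no rise, and fatty acid synthesis 2 rises and no fall. No paired analysis was possible because each group had 1 library, and for the same reason no replicate could be left out. Depth limits low genes, since 3 counts equal 0.143 to 0.147 CPM.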

Other observations

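Among entries at 0 in at least 1 liver library, which were not tested, 474 had at least 1 CPM in a GRf/f library and 316 of these passed the 2-fold limit. *Slc34a2*, a phosphate carrier, was at 0 under vehicle and at 64.6 CPM under CORT in GRf/f liver, at least 451-fold higher against a floor of 3 counts in the vehicle library, and at 0.0971 and 1.06 CPM in GRmKO liver. *Gpcpd1*, a phosphodiesterase of glycerophosphocholine, was at 144.8 CPM under vehicle and at 0 under CORT, at least 988-fold lower, and at 97.0 and 16.4 CPM in GRmKO liver. The entries for *Nfia*, *Sbno1*, *Lhx6* and *Baz2a* were at 0 under vehicle and at 20.4 to 34.4 CPM under CORT, and those for *Per1*, *Prpf6*, *Gvin1* and *Rlim* at 18.0 to 26.3 CPM under vehicle and at 0 under CORT. These are values of single retained transcripts, and whether the whole gene changed was not tested.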
